A study of Homo sapiens with 4 samples.

Results

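The genes described here encode 10 integrin subunits, 6 alpha chains (ITGA2, ITGA3, ITGA5, ITGA6, ITGA11 and ITGAV) and 4 beta chains (ITGB1, ITGB4, ITGB5 and ITGB6). They were chosen by gene symbol from the 58735 genes of the table, which lists 26 integrin subunit genes in all. No threshold on their values was set. Earlier results of these data were known at that point, so these genes are not an unselected sample of the family. Integrins are receptors of the cell surface in which an alpha and a beta chain pair and bind the extracellular matrix outside and the cytoskeleton inside. The alpha chain largely sets the ligand, and a beta chain such as beta-1 pairs with many alpha chains. In the lung they anchor epithelium to the basement membrane, hold fibroblasts to collagen and fibronectin, and, in the case of the alpha-V pairs, release latent TGF-beta.

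Bulk RNA was sequenced from HFL1 cells, named in the labels as the cell line of every library and generally known as a human fetal lung fibroblast line. The comparison asks how loss of calumenin, encoded by CALU and known as a protein of the endoplasmic reticulum that binds calcium, changes transcripts in these cells. The 2 libraries of the control group are labelled WT and the 2 of the other group KO, and no treatment or time is given for either. The series text speaks of both knockout and knockdown of calumenin, and the labels do not name the method or say whether the KO cells are 1 clone. Nor do they say that same-group libraries were grown apart, so a p-value here reflects library-to-library spread that may be technical.

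The values are FPKM, fragments scaled to gene length and to library depth, which allow levels of different genes to be compared per length. Whole reads recovered from them numbered 16173899 to 17715774 per library, and the mitochondrial share was 9.34% to 9.71% in 3 libraries and 12.7% in WT replicate 2. CALU, the targeted gene, stood at 87.7 and 81.8 FPKM in WT and at 6.59 and 5.95 FPKM in KO. The labelled cell type was checked against marker lists, and most of the listed fibroblast markers did not bear it out. Of 13 fibroblast markers 8 were below 1 FPKM in every library, with COL1A2 and POSTN at 0 in every library. The other 5 were tested, of which 1 rose (COL1A1, at 1 FPKM or more in KO only) and 2 fell (NT5E and TWIST2). The summed level of the list was 986 and 1391 FPKM in WT and 480 and 749 FPKM in KO. Most of it was S100A4, which did not pass the test described below (limma adjusted p = 0.0789). Of 12 epithelial markers, 8 were tested, 5 of these rose and 2 fell, beside 23.3% of all genes tested called in either direction. The 2 that fell, CLDN4 and KRT15, reached 1 FPKM in WT only, and TP63, which rose, in KO only. To be tested at all, these had to differ. The summed level of the 12 was 709 and 816 FPKM in WT against 1532 and 1762 FPKM in KO, most of it KRT8 and KRT18. Summed endothelial markers stayed at or below 1.84 FPKM, with ERG at 0. Leukocyte markers summed to 21.3 and 19.8 FPKM in WT against 6.78 and 7.31 FPKM in KO, mostly CD14, with CD3E and TYROBP at 0, and mural markers to 9.30 and 10.03 against 5.88 and 5.79 FPKM. The part of any of these differences in the integrin results was not tested, and in bulk RNA fewer cells of a type cannot be told apart from less RNA per cell.

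In KO, transcripts of the collagen receptor chain ITGA2 and of the laminin receptor chains ITGA3 and ITGB4 fell, and the low transcripts of ITGA11 and ITGB6 rose. The other 5 members, ITGA5, ITGA6, ITGAV, ITGB1 and ITGB5, did not pass the test. A gene is said to have risen or fallen where limma gave a Benjamini-Hochberg adjusted p under 0.05 over the 14100 genes tested, those with at least 1 FPKM in at least 2 libraries. All 10 members passed that filter, 8 of them through both groups. ITGA11 and ITGB6 passed it only through the KO libraries, where they are high, so that they had to differ, and the count of risen members supports nothing by itself. Over all genes tested 23.3% were called, 11.1% as lower and 12.1% as higher in KO. The members' median log2 change was -0.28, beside 0.03 for all genes tested. Groups did not overlap for 8 of the 10 members (3 higher and 5 lower in KO), against 65.7% of all genes tested, so that separation alone was common.

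**Figure D1:**
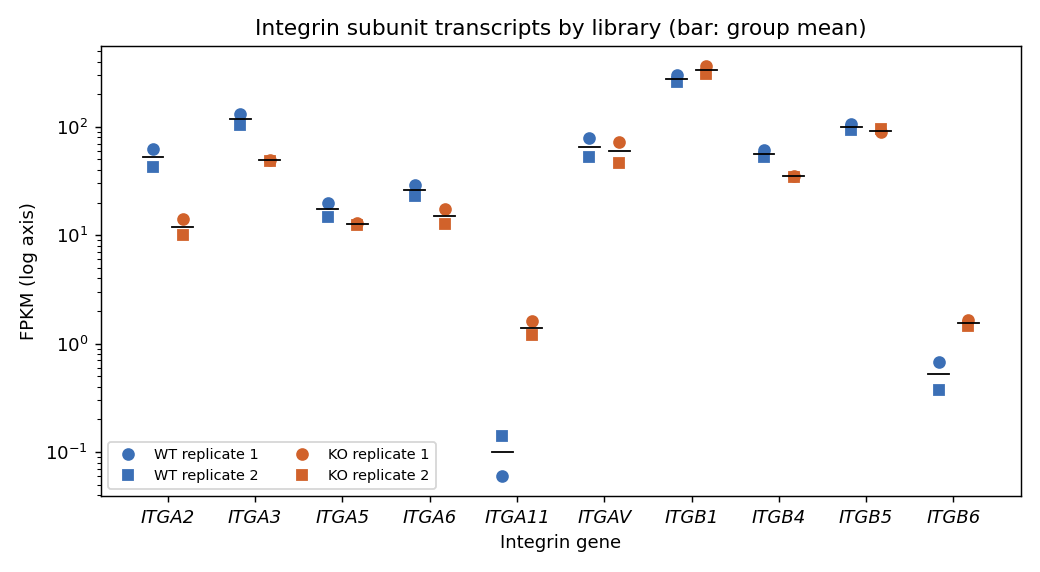
FPKM of each of the 10 integrin genes (log axis) in the 2 WT and 2 KO libraries, 1 point per library, with a bar at each group's mean. The widest gaps between groups are those of ITGA2, which is lower in both KO libraries, and ITGA11, which is higher in both from a level near 0.1 FPKM.

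The promoter windows of 3 called members are shown as the sequence context of their values below: ITGA2 and ITGA11, both collagen-binding alpha chains, and the epithelial beta chain ITGB6. Each runs from 250 bases before to 50 after the annotated start, from RefSeq on GRCh38.p14, the same assembly as the file's coordinates apart from patches. Capitals mark each GC box, the letters GGGCGG or their reverse complement CCGCCC. The AP-1 type motif TGANTCA was searched too, on both strands, where it reads the same, and has no match in these 3 windows.

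ITGA2 (chr5:52989102-52989401, plus strand): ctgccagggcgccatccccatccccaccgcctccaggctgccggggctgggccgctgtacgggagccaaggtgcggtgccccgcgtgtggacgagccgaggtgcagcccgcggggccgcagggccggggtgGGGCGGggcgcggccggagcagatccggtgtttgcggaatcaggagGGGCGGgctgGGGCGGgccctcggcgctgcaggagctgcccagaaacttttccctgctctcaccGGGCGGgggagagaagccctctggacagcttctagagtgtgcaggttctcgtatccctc

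ITGA11 (chr15:68432114-68432413, minus strand): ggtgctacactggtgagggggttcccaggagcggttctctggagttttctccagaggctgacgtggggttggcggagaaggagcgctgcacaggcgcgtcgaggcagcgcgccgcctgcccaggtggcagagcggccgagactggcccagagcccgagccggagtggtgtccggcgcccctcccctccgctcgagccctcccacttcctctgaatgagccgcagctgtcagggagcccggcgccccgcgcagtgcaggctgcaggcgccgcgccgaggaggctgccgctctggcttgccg

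ITGB6 (chr2:160200223-160200522, minus strand): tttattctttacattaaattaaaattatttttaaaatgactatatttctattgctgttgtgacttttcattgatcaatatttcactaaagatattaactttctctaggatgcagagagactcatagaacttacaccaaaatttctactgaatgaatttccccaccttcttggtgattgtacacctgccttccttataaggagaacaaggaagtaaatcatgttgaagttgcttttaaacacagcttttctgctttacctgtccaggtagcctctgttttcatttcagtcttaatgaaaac

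The ITGA2 window held 4 GC boxes, and those of ITGA11 and ITGB6 held none of either motif. Of all 35116 promoter windows of this length, from 27305 genes and thus not 1 per gene, 45% held a GC box and 7.71% the TGANTCA motif. The base composition differed as well, with 72.7% G and C for ITGA2, 72% for ITGA11 and 31.7% for ITGB6. Windows were found for 8 of the 10 members, all but ITGA3 and ITGB4. Of these 8, 5 held a GC box, and ITGA5 alone held a TGANTCA match. For ITGA6, ITGAV, ITGB1 and ITGB5, which had more than 1 window, only the window nearest the start of the gene's coordinates was counted. For ITGB1 the start in that window lay 47562 bases from the start of its gene. A match is a description of letters, not of a bound site.

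Among the collagen receptor chains, ITGA2 (ENSG00000164171, chromosome 5 from 52989326 to 53094779, plus strand, GRCh38) pairs with beta-1 to form a receptor for fibrillar collagen that also binds laminin. Its level was 62.6 and 42.9 FPKM in WT and 14.0 and 10.01 FPKM in KO. Both KO libraries lay below both WT libraries; the gap between the groups was wider than the gap within either. The group means were 52.7 ± 13.9 and 12.01 ± 2.84 FPKM (each SD over n = 2), so ITGA2 fell 4.39-fold, with a log2 change of -2.04 on the log2(FPKM + 1) scale (SE 0.25, limma adjusted p = 0.0065). It was the only member whose call held when any 1 of the 4 libraries was left out (limma adjusted p = 0.00847 to 0.0215).

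ITGA11 (ENSG00000137809, chromosome 15 from 68296533 to 68432162, minus strand) also pairs with beta-1 and is known as a collagen I receptor of fibroblasts. It was the lowest of the members in WT, at 0.0605 and 0.140 FPKM, or 12 and 25 reads, and stood at 1.60 and 1.21 FPKM in KO, or 305 and 216 reads. A count of 3 reads corresponds to at most 0.0169 FPKM for this gene. The ranges did not overlap, although the WT values differ more from each other, relative to their level, than the KO values. ITGA11 rose 14.02-fold, with means of 0.1005 ± 0.0565 FPKM in WT and 1.41 ± 0.275 FPKM in KO (each SD over n = 2; log2 change 1.13, SE 0.19, limma adjusted p = 0.0144). Leaving out 1 library in turn gave rises from 10.03-fold (without WT replicate 1) to 23.3-fold (without WT replicate 2). The call was lost without KO replicate 1 (limma adjusted p = 0.052), and even in KO the gene stayed near 1 FPKM. COL1A1, a chain of its best known ligand, was higher in the same libraries at 3.04 and 3.16 against 0.234 and 0.280 FPKM, while COL1A2, the other chain, was listed at 0 throughout.

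Among the laminin receptor chains, ITGA3 (ENSG00000005884, chromosome 17 from 50055968 to 50090481, plus strand) forms with beta-1 a receptor for laminins of the epithelial basement membrane. It was the most abundant alpha chain in WT, at 132 and 103 FPKM, and stood at 49.6 and 48.3 FPKM in KO. The groups were well apart, and the KO libraries were closer to each other than the WT libraries. ITGA3 fell 2.40-fold, with means of 117 ± 20.2 FPKM in WT and 48.95 ± 0.907 FPKM in KO (each SD over n = 2; log2 change -1.23, SE 0.17, limma adjusted p = 0.00973). Without WT replicate 1 the call was lost (limma adjusted p = 0.0616).

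ITGB4 (ENSG00000132470, chromosome 17 from 75721328 to 75757818, plus strand) pairs with alpha-6 only, and its long cytoplasmic tail links laminin to keratin filaments through plectin at hemidesmosomes. Its level was 60.7 and 52.3 FPKM in WT and 35.1 and 34.6 FPKM in KO. No KO library reached a WT library. ITGB4 fell 1.62-fold, with means of 56.5 ± 5.90 FPKM in WT and 34.9 ± 0.343 FPKM in KO (each SD over n = 2; log2 change -0.68, SE 0.15, limma adjusted p = 0.0279), and the call was lost on leaving out any 1 library (limma adjusted p = 0.0593 to 0.229). ITGB4 overlaps GALK1, a galactokinase gene on the opposite strand, over 6225 bases. Whether reads were counted by strand is not given, and GALK1 stood at 13.2 to 17.5 FPKM with 666 to 828 reads per library, against at least 3838 for ITGB4.

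ITGA6 (ENSG00000091409, chromosome 2 from 172427354 to 172506282, plus strand), which pairs with beta-4 or beta-1 as a laminin receptor, stood at 29.3 and 23.1 FPKM in WT and 17.5 and 12.7 FPKM in KO. Its groups did not overlap either, but the difference missed the threshold narrowly (1.74-fold lower, log2 change -0.77, SE 0.21, limma adjusted p = 0.0502, 95% interval -1.28 to -0.25). It passed with at least 1 FPKM required in all 4 libraries, after scaling by total reads and after quantile normalization. It also passed in limma-voom on the recovered reads (limma adjusted p = 0.0143 to 0.0466 over these settings). It did not pass with a pseudocount of 0.1 or 0.5, a constant prior or no filter on low values (limma adjusted p = 0.0512 to 0.146). Leaving out 1 library in turn gave log2 changes from -0.98 to -0.55.

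Of the fibronectin and vitronectin receptor chains, ITGA5 (ENSG00000161638, chromosome 12 from 54395261 to 54419460, minus strand) forms with beta-1 the classical fibronectin receptor. It stood at 20.0 and 14.8 FPKM in WT and 13.02 and 12.4 FPKM in KO, a difference that did not pass (log2 change -0.41, SE 0.18, limma adjusted p = 0.148, 95% interval -0.85 to 0.03). FN1, fibronectin itself, rose 3.74-fold in the same libraries.

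ITGAV (ENSG00000138448, chromosome 2 from 186590065 to 186680901, plus strand) encodes the alpha-V chain, which binds ligands with an RGD sequence and pairs with beta-1, beta-5 and beta-6 among others. Its level was 78.4 and 52.9 FPKM in WT and 72.5 and 46.5 FPKM in KO. The groups overlapped, and in both groups the library numbered 1 was the higher, as for every other member but ITGA11 and ITGB5. The interval of its log2 change, -0.86 to 0.57 around -0.15, still allows a change of either sign (SE 0.29, limma adjusted p = 0.746), and the sign turned without WT replicate 1 or without KO replicate 2.

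ITGB5 (ENSG00000082781, chromosome 3 from 124761948 to 124901418, minus strand), a vitronectin receptor chain, varied least between groups among the beta chains, at 107 and 93.8 FPKM in WT and 89.8 and 94.6 FPKM in KO. WT replicate 2 lay between the KO libraries, so the groups overlapped (log2 change -0.12, SE 0.15, limma adjusted p = 0.615, 95% interval -0.50 to 0.26).

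ITGB6 (ENSG00000115221, chromosome 2 from 160099666 to 160200313, minus strand) encodes an epithelial chain that pairs with alpha-V only and is known in the lung as an activator of latent TGF-beta. It stood at 0.678 and 0.377 FPKM in WT, or 58 and 29 reads, and at 1.64 and 1.45 FPKM in KO, or 135 and 111 reads. Both KO libraries were above both WT libraries, at low levels in all 4. The annotation of ITGB6 overlaps that of AC092153.1, a processed transcript on the same strand, over 58333 bases. AC092153.1 had 10 and 6 reads in WT and 28 and 11 reads in KO. How reads in the shared bases were assigned is not given. ITGB6 rose 2.93-fold, with means of 0.528 ± 0.212 FPKM in WT and 1.54 ± 0.141 FPKM in KO (each SD over n = 2; log2 change 0.74, SE 0.18, limma adjusted p = 0.0402). Leaving out any 1 library ended the call (limma adjusted p = 0.0734 to 0.173), as did a pseudocount of 0.1 (limma adjusted p = 0.0564). TGFB1, which encodes a ligand that this pair activates, fell from 118 and 98.2 FPKM to 67.4 and 64.7 FPKM, a call also lost on leaving out any 1 library (limma adjusted p = 0.069 to 0.25).

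ITGB1 (ENSG00000150093, chromosome 10 from 32900319 to 33005792, minus strand), the shared partner of most alpha chains, was the most abundant member in every library, at 300.2 and 257 FPKM in WT and 361 and 307 FPKM in KO. KO values lay just above WT values, a gap smaller than the spread within either group (log2 change 0.26, SE 0.19, limma adjusted p = 0.355, 95% interval -0.20 to 0.72). Its annotation overlaps that of ITGB1-DT, a noncoding transcript on the opposite strand chosen here after its values were seen, over 46948 bases. ITGB1-DT stood at 25.6 and 24.1 FPKM in WT and 10.7 and 14.0 FPKM in KO, at most 557 reads beside at least 25334 for ITGB1.

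**Figure D2:**
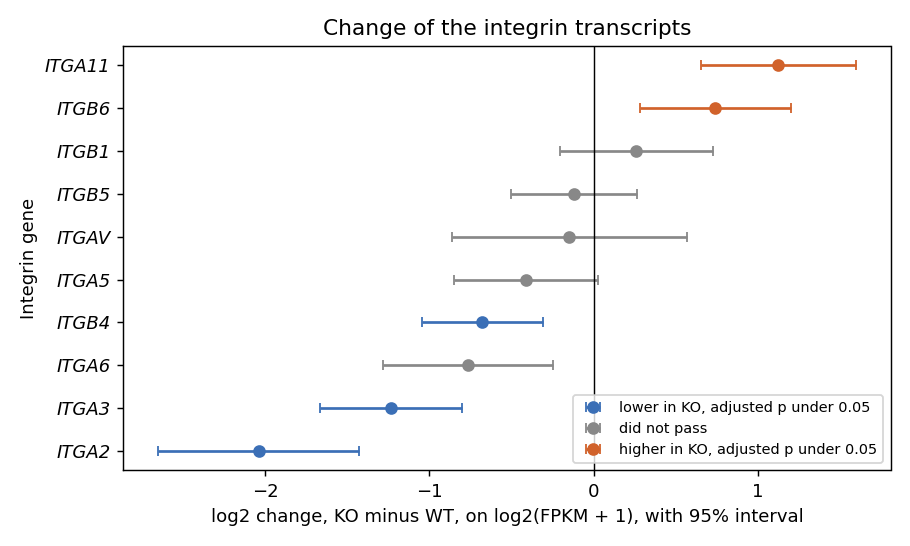
Log2 change from WT to KO on the log2(FPKM + 1) scale for each integrin gene, with its 95% interval from limma and n = 2 per group. ITGA2, ITGA3 and ITGB4 lie below 0 and ITGA11 and ITGB6 above it; the interval of ITGA6 excludes 0 although its adjusted p is 0.0502.

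The order of levels differed between groups. In WT it ran from ITGB1 through ITGA3, ITGB5, ITGAV, ITGB4, ITGA2, ITGA6 and ITGA5 to ITGB6 and ITGA11. The neighbours ITGA3 and ITGB5, ITGAV and ITGB4, and ITGB4 and ITGA2 overlapped between libraries, while all other neighbours were apart. In KO the order was ITGB1, ITGB5, ITGAV, ITGA3, ITGB4, ITGA6, ITGA5, ITGA2, ITGB6 and ITGA11. There ITGAV overlapped ITGA3, ITGA6 overlapped ITGA5, ITGA5 overlapped ITGA2, and ITGB6 overlapped ITGA11. ITGA2 thus stood above ITGA6 and ITGA5 in WT and level with ITGA5 in KO.

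Summed over the 18 alpha chain genes, FPKM was 333 and 249 in WT and 177 and 140 in KO, without overlap. Summed over the 8 beta chain genes it was 472 and 407 in WT and 488 and 440 in KO, and the groups overlapped. Within the alpha sum, ITGA3 held 39.5% and 41.4% in WT and 28.1% and 34.4% in KO. ITGA2 held 18.8% and 17.2% in WT and 7.93% and 7.13% in KO. ITGAV, whose own level overlapped between groups, held 23.5% and 21.3% in WT and 41.1% and 33.1% in KO, so that it was the leading alpha chain in KO replicate 1 and second in KO replicate 2. ITGA6 kept a share of 8.78% to 9.89% in every library. Within the beta sum, ITGB1 held 63.6% and 63.1% in WT and 73.8% and 69.9% in KO, and ITGB4 12.9% in both WT libraries against 7.20% and 7.88% in KO. These shares describe transcripts and have no test of their own.

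**Figure D3:**
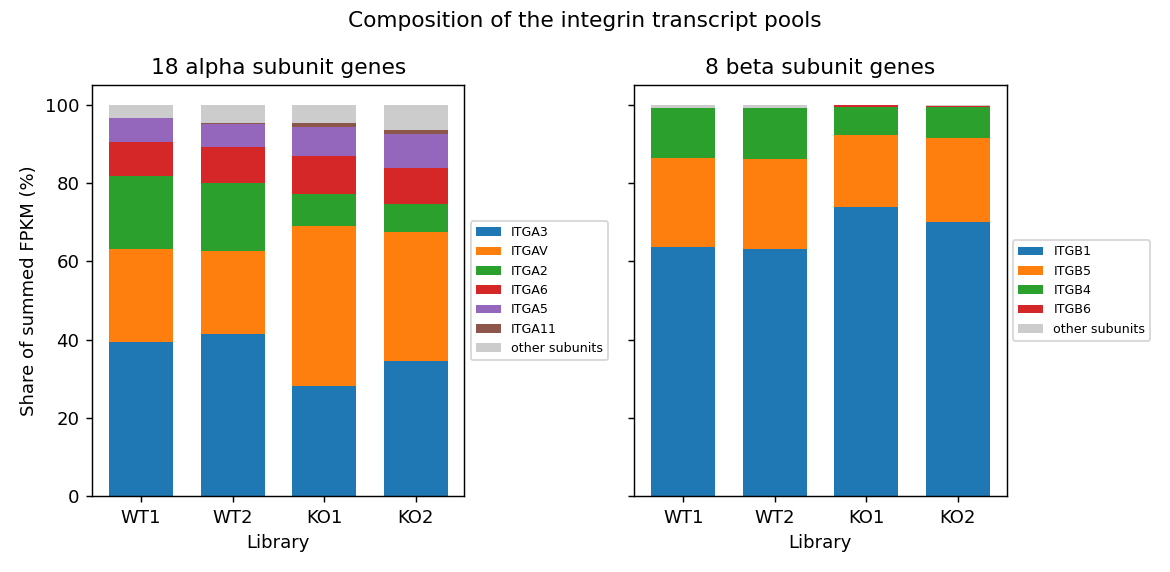
Share of each member in the summed FPKM of the 18 alpha chain genes (left) and the 8 beta chain genes (right), as stacked bars for each library, with the remaining subunits in grey. In KO the ITGAV and ITGB1 segments are wider and the ITGA2, ITGA3 and ITGB4 segments narrower than in WT.

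Ratios within a library do not depend on scaling between libraries and put each alpha chain beside a known partner. With 2 libraries on each side, 0.333 is the smallest two-sided p an exact permutation test allows, so these 9 ratios are descriptions, and adjusting over them would not change that. ITGA2 over ITGB1 was 0.208 and 0.167 in WT and 0.0389 and 0.0326 in KO, 5.24-fold lower (exact permutation p = 0.333). ITGA3 over ITGB1 was 0.439 and 0.401 in WT and 0.138 and 0.157 in KO, 2.85-fold lower. For both chains the step between groups was many times the spread within them.

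ITGA6 over ITGB1 was 2.09-fold lower in KO, ITGA5 over ITGB1 1.62-fold and ITGAV over ITGB1 1.33-fold, each without overlap between groups. For ITGAV over ITGB1 the gap was narrow, from 0.206 in WT replicate 2 to 0.201 in KO replicate 1. That gap was smaller than the spread within either group. ITGA11 over ITGB1 was 12.6-fold higher, a log2 difference of 3.66 that was 2.94 without WT replicate 1, 4.38 without WT replicate 2 and 0.87 with 1 added to both FPKM values. ITGA6 over its other partner ITGB4, by contrast, was 0.482 and 0.441 in WT and 0.498 and 0.365 in KO, with overlapping groups (exact permutation p = 1). ITGAV over ITGB5 overlapped too, at 0.733 and 0.564 against 0.808 and 0.491, whereas ITGAV over ITGB6 was 116 and 140 in WT and 44.1 and 32.1 in KO. The KO-to-WT difference in log2 ratio was -0.11 for ITGA6 over ITGB4 and -0.03 for ITGAV over ITGB5, both smaller than the SD within KO (0.32 and 0.51).

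**Figure D4:**
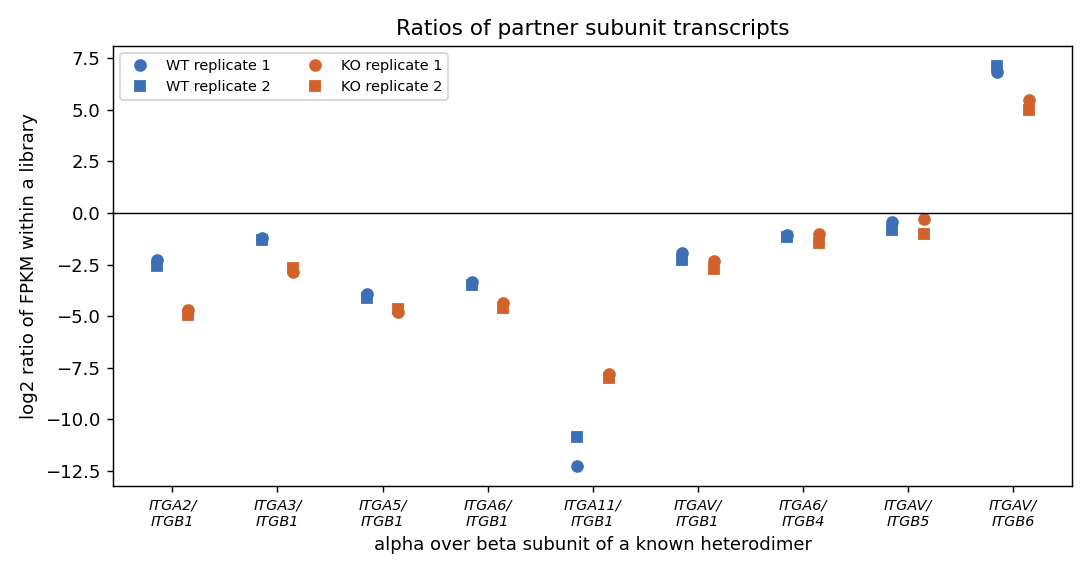
Log2 ratio of the FPKM of an alpha chain to that of a known beta partner within each library, 1 point per library. Ratios to ITGB1 are lower in KO for ITGA2, ITGA3, ITGA5, ITGA6 and ITGAV and higher for ITGA11, while ITGA6 over ITGB4 and ITGAV over ITGB5 overlap.

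The 16 other integrin genes were low. Of these, 10 stayed below 1 FPKM in every library, with ITGA8 at 0, and 5 passed the filter. ITGB8, another alpha-V partner that binds latent TGF-beta, stood at 1.77 and 1.36 FPKM in WT and at 0.226 and 0.153 FPKM in KO, and passed the filter through the WT libraries alone. It fell 8.25-fold (log2 change -1.10, SE 0.18, limma adjusted p = 0.0142), a call lost without WT replicate 1 (limma adjusted p = 0.0521). ITGA10, a collagen receptor chain of cartilage, fell from 3.53 and 4.23 FPKM to 1.83 and 1.84 FPKM (limma adjusted p = 0.0195; 0.0531 to 0.131 without either WT replicate or without KO replicate 1). ITGB2, the beta chain of leukocyte integrins, at 1.02 and 1.34 against 0.378 and 0.646 FPKM, ITGAE at 2.88 and 3.19 against 3.62 and 3.87 FPKM and ITGA7 at 0.782 and 1.04 against 0.914 and 1.22 FPKM did not pass. ITGA4 was above 1 FPKM in WT replicate 1 only and was not tested.

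Matrix ligands of integrins in general, not only of the members, changed in both directions. Of 34 listed, 28 were tested, 8 rose and 6 fell, beside 12.1% called as higher and 11.1% as lower over all genes tested. Their median log2 change was -0.14. LAMB3, a beta chain of laminin in epithelial basement membranes, fell from 54.9 and 52.7 FPKM to 6.83 and 6.74 FPKM, 7.93-fold lower (log2 change -2.82, SE 0.13, limma adjusted p = 0.00154). The call held on leaving out any 1 library. LAMA3, a laminin alpha chain chosen after its values were seen, stood at 3.35 and 2.48 FPKM in WT and 2.26 and 2.25 FPKM in KO and did not pass (limma adjusted p = 0.305).

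Ligands that rose included FN1, from 34.7 and 28.9 to 126 and 111 FPKM, and COL5A1, a fibrillar collagen chain, from 7.75 and 8.78 to 30.6 and 35.2 FPKM. NPNT, nephronectin, rose 6.34-fold to 5.22 FPKM and COL1A1 12.1-fold to 3.10 FPKM, both of which passed the filter through KO alone. TGFBI, a matrix protein with integrin-binding motifs, rose 2.61-fold to 224 FPKM. CTGF, a matricellular ligand, fell 3.23-fold from 45.9 to 14.2 FPKM.

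Of the 4 other hemidesmosome and ITGB4-associated genes, COL17A1 and PLEC fell, beside 11.1% called as lower over all genes tested. COL17A1, the transmembrane collagen of hemidesmosomes, stood at 2.10 and 1.72 FPKM in WT and 0.234 and 0.294 FPKM in KO, and passed the filter through WT alone (7.23-fold lower, limma adjusted p = 0.0102). PLEC, plectin, which binds the ITGB4 tail, fell from 118 and 112 FPKM to 51.5 and 59.3 FPKM (2.08-fold lower, limma adjusted p = 0.0105), a call lost without either WT replicate (limma adjusted p = 0.0767 and 0.0577). DST at 11.9 and 10.03 against 8.79 and 6.30 FPKM and CD151, a tetraspanin bound to laminin-binding integrins, at 55.2 and 68.1 against 67.7 and 106 FPKM did not pass; these names were picked with their values already known.

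Of 33 cytoplasmic activators and adaptors listed, 29 were tested, 4 rose and 3 fell, a share near that over all genes tested, with a median log2 change of 0.11. KANK2, which binds talin, rose 2.58-fold, with means of 4.69 ± 0.875 FPKM in WT and 12.1 ± 0.287 FPKM in KO (each SD over n = 2, limma adjusted p = 0.00764). VCL, vinculin, which couples talin to actin, rose from 27.2 and 25.1 to 52.6 and 45.7 FPKM. TNS4, a tensin that binds beta tails, fell 2.18-fold from 38.3 and 44.3 to 19.5 and 18.5 FPKM, and the kinase gene SRC fell 1.72-fold. The calls of VCL and SRC were lost without either WT replicate (limma adjusted p = 0.0852 to 0.156), that of SRC also without KO replicate 1 (limma adjusted p = 0.0551) and that of TNS4 without WT replicate 2 (limma adjusted p = 0.0611). GIT1, lower in KO, and TGFB1I1 and PTK2B, higher in KO, lost theirs on leaving out any 1 library (limma adjusted p = 0.0513 to 0.276).

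Of 14 genes that restrain or traffic integrins, 12 were tested and 1 passed, as higher in KO, beside 23.3% called over all genes tested. Their median log2 change was 0.24. The 1 was FLNA, filamin A, an actin crosslinker that competes with talin for beta tails, from 142 and 139 FPKM to 308 and 317 FPKM (2.23-fold higher, limma adjusted p = 0.00842; 0.0609 and 0.0542 without either WT replicate). Of 11 membrane proteins that associate laterally with integrins, all were tested and 3 passed, near the 23.3% called over all genes tested. These 3 were called as lower in KO, beside 11.1% over all genes tested, and the list's median was -0.19. SLC3A2, the CD98 heavy chain that binds beta tails, fell 2.70-fold from 148 and 132 to 45.1 and 58.3 FPKM. SDC4, a syndecan that cooperates with fibronectin receptors, fell 2.92-fold from 59.3 and 50.7 to 18.3 and 19.4 FPKM. CD82, a tetraspanin, fell 5.53-fold from 6.34 and 5.58 to 0.634 and 1.52 FPKM. The fall was 3.92-fold without KO replicate 1 and 9.41-fold without KO replicate 2. In KO, CD82 reached 1 FPKM in replicate 2 only, so it passed the filter through WT. All 3 calls held on leaving out any 1 library.

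**Figure D5:**
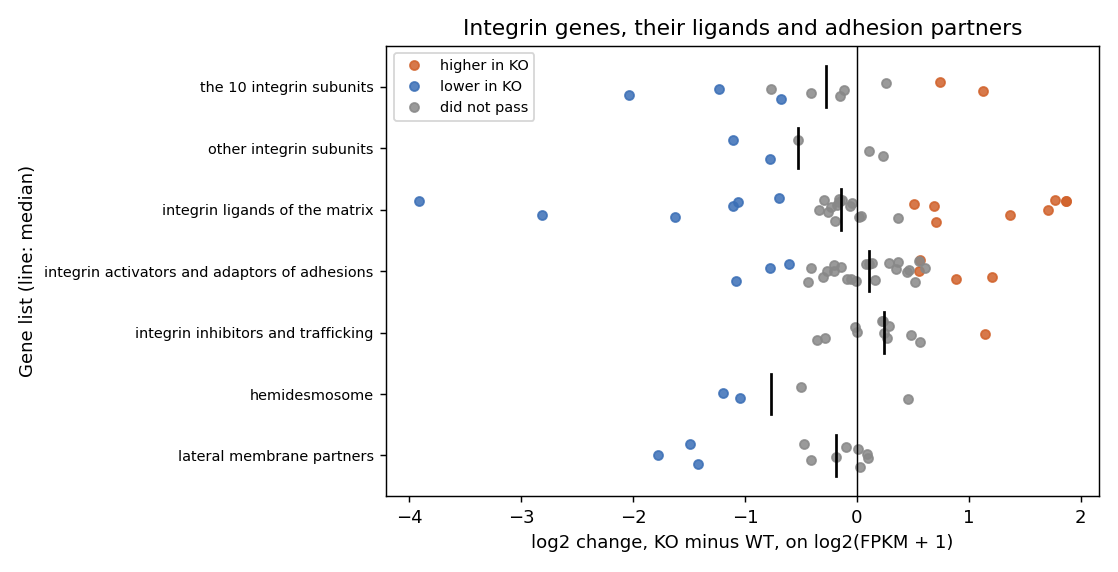
Log2 change from WT to KO of every tested gene in the 10 integrin subunits and 6 lists of related genes, 1 point per gene, coloured by the limma call, with a line at each median. The medians run from -0.77 for the hemidesmosome list to 0.24 for the inhibitor and trafficking list, and the widest spread is among the ligands.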

How the data were processed

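Paired-end RNA-seq reads were aligned with HISAT2 2.0.5, per the labels' protocols, and the submitters' processing notes name the builds hg38 and mm10. The authors deposited 1 table of FPKM values per gene and library; of the counting tool, the strand setting and any scaling across samples, each is not given in the sources used here. Gene coordinates of all 58735 genes equalled those of GENCODE release 29 on GRCh38. FPKM times gene length was a whole multiple of 1 step per library for 100% of nonzero values (tolerance 0.01), which gave the recovered reads. A floor of 3 reads covers counting error only.

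Values were fitted as log2(FPKM + 1), which understates changes of low genes, with limma 3.58.1 in R 4.3.3 (intensity-dependent prior, prior df 3.54, residual df 2, no replicate block) over all 14100 genes with at least 1 FPKM in at least 2 libraries, Benjamini-Hochberg adjusted. Folds are ratios of mean FPKM. The fit was tested on simulated data. Genes of the lists are named by size of change among those called, up to 8 per list, then by abundance; the members and lists were chosen with earlier results of these data known. Alternatives changed the pseudocount, filter, scaling, prior and model, or left out a library. Some genes that this rule would name are not reported here.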

Additional observations from a re-analysis of the deposited data

How the results depend on the processing

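ITGA11 and ITGB6 rested on 12 to 58 reads per WT library. The cause of the shifts below was not tested. Of 5 integrin calls, 0 held with no filter on low values (limma, 6 members at an unadjusted p under 0.05; limma adjusted p = 0.0567 to 0.128). In that setting the counts were 376 for all genes, 0 for other integrins (6 unadjusted), 8 for ligands, 0 for adaptors (18 unadjusted), 0 for inhibitors and trafficking (3 unadjusted), 0 for hemidesmosome genes (2 unadjusted), 1 for lateral partners, 1 for fibroblast, 3 for epithelial and 0 for mural markers (2 unadjusted). With at least 1 FPKM in all 4 libraries fewer genes were tested, 11707 in all and 8 members, without ITGA11 and ITGB6. Calls were 2761 over all genes, 4 of the 8 members and 1 of 2 other integrins tested. They were 2 of 12 for inhibitors and trafficking, 1 of 3 for hemidesmosome genes and 4 of 5 for epithelial markers. Limma-voom, run with the filter, called more genes in all, 4125 of 14100 against 3283 in the main fit. Among them were 6 members, 13 adaptors, 3 inhibitors and trafficking genes and 2 leukocyte markers.

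The replicate numbers share only a number in the labels, and differences between replicates 1 and 2 correlated across genes at 0.411 between the groups. With a replicate block 5545 genes were called against 3283 without, among them 15 adaptors, 3 inhibitors and trafficking genes and 4 hemidesmosome genes, and of the members ITGA5 (limma adjusted p = 0.0465) and ITGA6 (limma adjusted p = 0.0035) besides the 5 called without it.

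Leaving out 1 library in turn gave 1042 to 2581 calls over all genes (1042 without WT replicate 1, 1291 without WT replicate 2) and 2 to 3 over the members (2 without WT replicate 1, 3 without each other library). The lists ranged from 0 to 2 for other integrins, 9 to 12 for ligands, 1 to 5 for adaptors, 0 to 2 for inhibitors and trafficking, 1 to 2 for hemidesmosome genes, 1 to 2 for fibroblast and 4 to 6 for epithelial markers. Leave-one-out log2 values reached from -0.46 to 0.17 for ITGAV, from -0.34 to 0.11 for ITGA6 over ITGB4 and from -0.39 to 0.33 for ITGAV over ITGB5. The sign of the ITGAV change turned to 0.13 without WT replicate 1 and 0.17 without KO replicate 2, that of ITGA6 over ITGB4 to 0.11 without KO replicate 2, and that of ITGAV over ITGB5 to 0.16 without WT replicate 1 and 0.33 without KO replicate 2. Adding 1 to both FPKM values moved ITGA11 over ITGB1 from 3.66 to 0.87 and ITGAV over ITGB6 from -1.76 to -0.89 (log2).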
